A study of Mus musculus with 6 samples.

Results

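AP-1 (activator protein 1) and the other immediate early genes measured here are 10 genes, chosen by name with earlier results of these data known: Fos, Fosb, Fosl1, Fosl2, Jun, Junb, Jund, Atf3, Egr1 and Ier3. They are 10 of the 18448 genes in the count table, and all 10 passed the filter on low counts. RNA was sequenced from jejunal organoids, which are 3-dimensional epithelial cultures of the small intestine, of C57BL/6 mice. All of the organoids were Villin-CreERT2; Hnf4a flox/flox. They therefore carried floxed alleles of Hnf4a, which encodes a nuclear receptor transcription factor of the intestinal epithelium, and CreERT2, a Cre recombinase that the Villin promoter drives in intestinal epithelial cells and that 4-hydroxytamoxifen switches on. One group of 3 libraries came from organoids given the vehicle DMSO, and the other group of 3 from organoids given 0.5 µM 4-hydroxytamoxifen (4OHT), the ligand that activates the recombinase, for 24 hours. Both groups were then split, grown with 200 ng/mL recombinant Wnt3A and harvested at day 2. Both groups carried the recombinase and the floxed alleles, so 4OHT itself, recombinase activity and loss of Hnf4a cannot be told apart. The ages of the mice are not given in the labels.

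AP-1 is a family of dimers in which a Fos protein (Fos, Fosb, Fosl1, Fosl2) pairs with a Jun protein (Jun, Junb, Jund), or Jun proteins pair with each other, through a basic leucine zipper. The dimers bind the palindromic element TGACTCA and its relatives. Many of these genes are transcribed within minutes of a growth factor or stress signal, without new protein synthesis, through MAP kinases that act on SRF, ternary complex factors, CREB/ATF proteins and Jun itself, and their messages decay quickly. In the intestinal epithelium AP-1 is known for its part in proliferation, wound responses and stress responses.

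The bases just upstream of 4 of the genes are shown first, because matches to short promoter elements were found in them. The sequences are from RefSeq promoters on GRCm38.p6, read 5′ to 3′ on the gene's strand and trimmed to bases outside annotated exons. Motif positions count from the RefSeq start, which for Ier3 lies 29 exon bases past the end of the printed window and for the other 3 directly after it. Capitals mark the motifs found in them: TGACG and TATAAA in Fos, TGACATCA in Jun, TGACG in Junb and GGAATTTCC in Ier3. The windows are chr12:85473640-85473889 on the plus strand for Fos, chr4:95052223-95052472 on the minus strand for Jun, chr8:84978749-84978998 on the minus strand for Junb and chr17:35821463-35821683 on the plus strand for Ier3.
Fos: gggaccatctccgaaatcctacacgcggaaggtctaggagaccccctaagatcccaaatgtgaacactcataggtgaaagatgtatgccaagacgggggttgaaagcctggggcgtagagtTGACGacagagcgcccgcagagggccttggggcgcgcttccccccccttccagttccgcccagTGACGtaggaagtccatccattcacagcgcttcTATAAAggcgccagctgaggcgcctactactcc
Jun: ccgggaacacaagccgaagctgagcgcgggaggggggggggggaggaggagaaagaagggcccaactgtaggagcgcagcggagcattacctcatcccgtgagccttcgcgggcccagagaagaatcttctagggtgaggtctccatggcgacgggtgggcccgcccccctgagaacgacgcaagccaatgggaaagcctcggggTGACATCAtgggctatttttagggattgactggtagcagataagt
Junb: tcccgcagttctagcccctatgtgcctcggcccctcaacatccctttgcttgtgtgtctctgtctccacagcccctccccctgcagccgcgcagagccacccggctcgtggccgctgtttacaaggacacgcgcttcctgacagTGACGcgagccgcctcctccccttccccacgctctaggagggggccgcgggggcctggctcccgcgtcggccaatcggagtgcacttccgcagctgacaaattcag
Ier3: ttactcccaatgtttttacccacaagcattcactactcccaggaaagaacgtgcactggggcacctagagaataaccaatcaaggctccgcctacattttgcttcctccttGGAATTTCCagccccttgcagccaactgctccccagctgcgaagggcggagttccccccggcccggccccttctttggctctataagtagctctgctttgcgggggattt

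RefSeq promoters were matched for 8 of the 10 genes, leaving out Fosl1 and Egr1, and the 250 bases before the start were searched, both strands except for TATAAA, which was read on the given strand only. TGACG, the half-site bound by CREB/ATF proteins, was found in 4 of the 8 windows (Fos, Fosb, Junb and Atf3), and 17.8% of the 32851 windows of that length over all genes held it. The Atf3 match, on the opposite strand at -7 to -3, lies in bases annotated as exon. In Fos TGACG lay at -129 to -125 and at -66 to -62 from the start, and in Junb at -106 to -102. TATAAA lay at -33 to -28 in Fos, and 7.59% of all windows held it. TGACATCA, the Jun proximal element, lay at -45 to -38 in Jun and was in 2.93% of all windows. GGAATTTCC, an NF-kB element, lay at -139 to -131 in Ier3 and was in 0.286% of all windows. The AP-1 element TGACTCA (4.46% of all windows), the full element TGACGTCA, which contains TGACG (1.55%), the CArG box bound by SRF (1.47%) and the HNF4 element CAAAGTCCA (0.384%) were in 0 of the 8 windows. These are matches of letters in a window, not sites of binding, and bases further upstream were not searched.

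Total counts ran from 31537100 to 40276242 per library, and 14544 genes were tested. The targeted gene Hnf4a was lower in every 4OHT library: 839.8, 846.2 and 1021 CPM (counts scaled to a common library size) in DMSO replicates 1, 2 and 3 against 435.9, 423.7 and 481.7 in the 4OHT replicates (a log2 fold change of -1.01, SE 0.10, by edgeR with adjusted p = 0.0124). Leaving out any 1 library other than DMSO replicate 3 took the adjusted p to 0.0572 to 0.0951, with log2 fold changes of -0.98 to -1.07. The 3 DMSO libraries and the 3 4OHT libraries did not overlap, and the mean after 4OHT was 0.496 of the mean in DMSO. The summed level of 6 epithelial markers was 12730 to 18990 CPM. Fibroblast markers summed to 0.0975 to 0.458 CPM with 2 of 6 listed, immune markers to 2.79 to 3.40 CPM in DMSO and 4.24 to 5.48 CPM after 4OHT with 4 of 6 listed, and endothelial markers to 0.306 to 0.478 CPM with 1 of 3 listed. Of the immune markers DESeq2 called Cd68 higher (adjusted p = 0.0486, and 0.150 by edgeR). Cd68 made up most of the immune sum, with 2.31 to 2.92 CPM over the DMSO libraries and 3.72 to 4.83 over the 4OHT libraries. The immune sum therefore mostly repeats this gene. Csf1r overlapped between the groups. Ptprc and Lyz2 had at most 6 counts in any library and were not tested. Mean Lyz2 was 0.129 CPM with DMSO and 0.080 with 4OHT, and mean Ptprc was 0.049 and 0.099. DMSO replicate 3 stood apart from the other DMSO libraries (chi-square per degree of freedom 64.2 and 58.5, against 7.86 between DMSO replicates 1 and 2), with a sum of 9 enterocyte markers of 6442 CPM against 2966 to 3219 in the other DMSO libraries and 2073 to 3488 after 4OHT. Its part in the results was not tested beyond leaving it out. Goblet cell markers, 6 in all, summed to 2147 to 4006 CPM in DMSO libraries and to 3378 to 5536 CPM in 4OHT libraries. Of the 6, edgeR without a block (0.908% of all tested genes called) and limma-voom (0.846%) called 0. DESeq2 called 1 higher (5.13%), and edgeR with the replicate number as a block called 5 higher (6.99%). The log2 fold change was below 0 in all 9 enterocyte markers (median -0.54) and all 5 stem cell markers (median -0.34). Over all tested genes 49.2% were above 0. Of the enterocyte markers DESeq2 called 2 lower (5.13% of all tested genes) and the block 2 lower (6.99%). Of the stem cell markers DESeq2 called 0 and the block 1 lower. limma-voom called 0 in either list. Of 5 Paneth cell markers 3 were below 0 and 2 above (median -0.15). Of the enterocyte, stem cell and Paneth cell markers edgeR called 1, Lyz1, which fell by 0.78 on the log2 scale (adjusted p = 0.0318). DESeq2, limma-voom and the block called Lyz1 lower too. The part of these cell type markers in the results was not tested. In bulk RNA, fewer cells of a type and less RNA per cell cannot be told apart. Whether the replicates of a group were separate cultures or animals is not in the labels, and the p-values reflect only the scatter among these 6 libraries, part of which may be technical.

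Across the 10 genes the levels after 4OHT were mostly above those in DMSO, but edgeR's quasi-likelihood test called 0 of them, with 132 of all tested genes called (0.908%). At an unadjusted p under 0.05, 3 of the 10 were higher (Fosl2, Ier3 and Junb) and 0 were lower, beside 8.65% of all tested genes that were higher by that rule. limma-voom also called 0 (0.846% of all tested genes), and DESeq2 called 1, Ier3 (5.13% of all tested genes). With the replicate number as a block, the call was 1, Fosl2 (6.99% of all tested genes). Ier3 was also the 1 gene called by edgeR without DMSO replicate 3 (2.29% of all tested genes) and without replicate 3 of both groups (4.1%). The fitted log2 fold change was above 0 in 9 of the 10 genes, beside 49.2% of all tested genes, and its median was 0.45 against -0.0041 over all tested genes. Because the genes were chosen with results known, these counts are descriptions. The 3 libraries of one group lay wholly above those of the other in 5 genes, Fosb, Fosl1, Fosl2, Jund and Ier3, each higher after 4OHT, beside 12.5% of all tested genes. Within all 3 same-numbered pairs the 4OHT library was higher in 7 genes, these 5 and Fos and Junb, beside 25.3% of all tested genes.

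**Figure D1:**
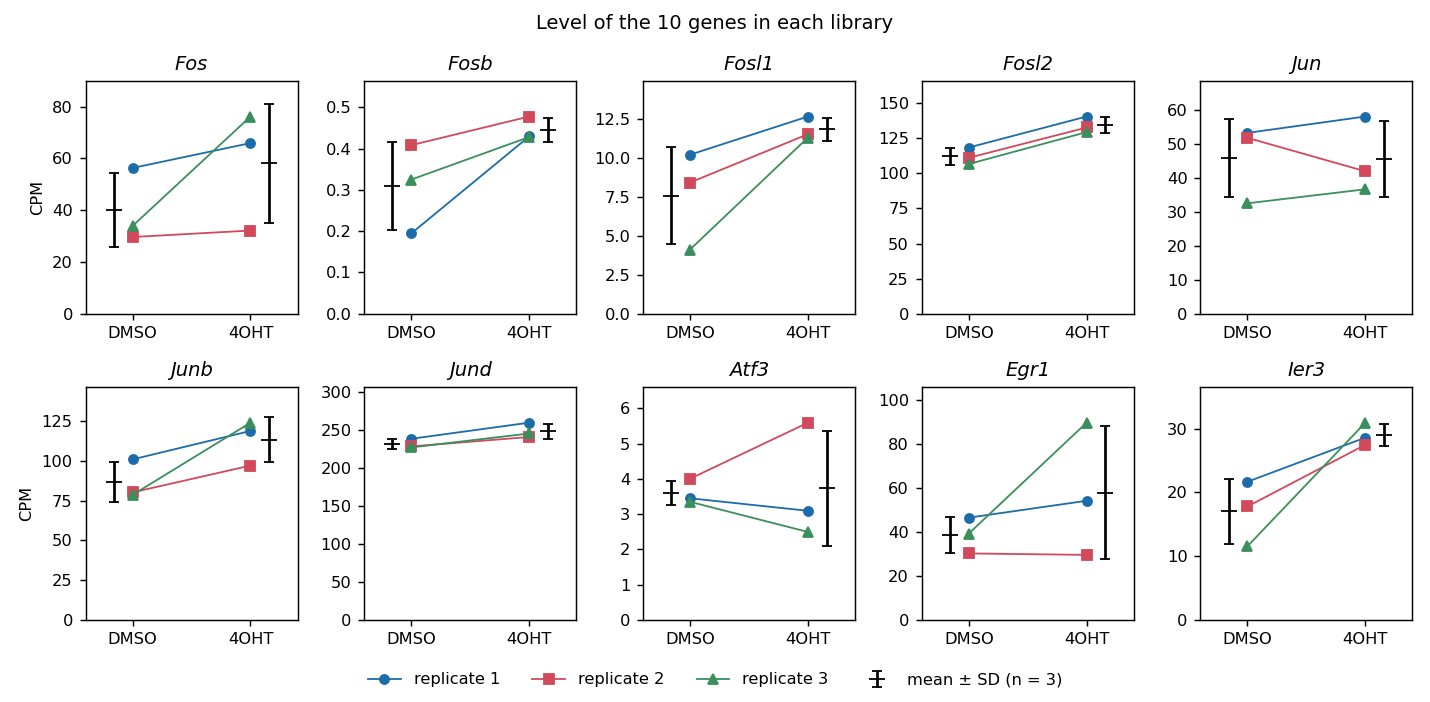
Level of each of the 10 genes in CPM (y axis, starting at 0) in DMSO and 4OHT libraries; circles, squares and triangles are replicates 1, 2 and 3, lines join libraries with the same number, and bars are the mean ± SD (n = 3). Fosl2 and Ier3 show every 4OHT library above every DMSO library, while Jun and Atf3 cross.

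Fos encodes the founding Fos protein, which needs a Jun partner to bind DNA. Its gene (ENSMUSG00000021250) lies at chr12:85473890-85477273 on the plus strand of GRCm38 and has up to 4 exons. Fos stood at 56.3, 29.6 and 34.0 CPM in DMSO replicates 1, 2 and 3, and 4OHT replicates 1, 2 and 3 had 66.0, 32.1 and 76.2 CPM. The groups overlapped, because replicate 2 was low in both groups and only 4OHT replicates 1 and 3 exceeded every DMSO library. Averaged, this was 40.0 ± 14.3 and 58.1 ± 23.1 CPM (SD, n = 3) and a log2 fold change of 0.54 (SE 0.36, edgeR adjusted p = 0.533). The size rested on single libraries: leaving out 4OHT replicate 3 gave 0.29, leaving out 4OHT replicate 2 gave 0.83 and leaving out DMSO replicate 1 gave 0.87.

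Fosb, a second Fos protein with a transactivation domain, was barely expressed. Its gene (ENSMUSG00000003545) is at chr7:19302696-19310051 on the minus strand, with up to 5 exons. It was covered by 7, 15 and 10 counts in the DMSO libraries and 15, 17 and 17 in the 4OHT libraries, or 0.195, 0.408 and 0.325 CPM against 0.429, 0.478 and 0.428 CPM. In CPM every 4OHT library was above every DMSO library, but only through the scaling, since DMSO replicate 2 and 4OHT replicate 1 both had 15 counts. Fosb had a log2 fold change of 0.52 (SE 0.32, edgeR adjusted p = 0.498), 0.27 without DMSO replicate 1 and 0.79 without DMSO replicate 2.

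Fosl1 encodes Fra-1, a Fos protein without the transactivation domain of Fos that is itself an AP-1 target in many cells. It lies at chr19:5447547-5455946 on the plus strand (ENSMUSG00000024912, up to 4 exons). Its exons share 1163 bases with Ccdc85b on the opposite strand, and the strand setting of the counting is not given in the sources used here, so reads of the 2 genes may have been mixed. Ccdc85b had a log2 fold change of 0.11 (edgeR adjusted p = 0.576). Fosl1 was measured at 10.2, 8.44 and 4.13 CPM in DMSO libraries, against 12.7, 11.5 and 11.3 in 4OHT libraries. The groups did not overlap, and DMSO replicate 3 was the lowest library by far. edgeR put the log2 fold change at 0.64 (SE 0.29, adjusted p = 0.373), and at 0.34 (adjusted p = 0.23) without that library.

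Fosl2 encodes Fra-2, the most evenly expressed Fos gene here. Its gene (ENSMUSG00000029135) is at chr5:32135801-32157842 on the plus strand, with up to 4 exons. Levels were 118, 111 and 107 CPM in DMSO libraries, against 141, 133 and 129 in 4OHT libraries. Libraries of one group differed by less than the 2 means did, and the lowest 4OHT library was above the highest DMSO library. The mean went from 112 ± 5.94 to 134 ± 5.72 CPM (SD, n = 3), or 1.20-fold, which was 0.26 in log2 units (SE 0.062). The edgeR adjusted p was 0.113 without the block and 0.0245 with it, where Fosl2 rose by 0.25, 0.26 and 0.28 (log2) in pairs 1, 2 and 3. Over 15 alternatives its adjusted p ran from 0.000283 to 0.374. The lowest value came from the block without replicate 3 of both groups, a choice made after the data were seen.

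Jun encodes the Jun protein, which can bind DNA as a homodimer or with a Fos partner, and the Jun gene (ENSMUSG00000052684) has a single exon at chr4:95049034-95052222 on the minus strand, of which 232 bases are shared with the antisense gene Junos. It was measured at 53.2, 51.7 and 32.5 CPM in DMSO libraries, against 58.0, 41.9 and 36.6 in 4OHT libraries. The groups overlapped, and replicate 3 was low in both. Jun had a log2 fold change of -0.01 (SE 0.23, edgeR adjusted p = 0.989). Its sign depended on the library left out: it was positive in 4 of the 6 cases, with a highest value of 0.12, and the lowest value was -0.23. 

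Junb encodes a Jun protein that often acts against Jun, and its transcript is strongly induced in many immediate early responses. The gene (ENSMUSG00000052837, chr8:84974484-84978718, minus strand, up to 2 exons) shares 173 exon bases with Prdx2 on the opposite strand (log2 fold change of Prdx2 -0.11, edgeR adjusted p = 0.425). Junb was measured at 101, 80.3 and 78.7 CPM in DMSO libraries, against 119, 97.1 and 124 in 4OHT libraries. The groups overlapped in 1 place: 4OHT replicate 2 was below DMSO replicate 1. On average it was 86.7 ± 12.5 CPM against 113 ± 14.3 CPM (SD, n = 3), 0.39 apart on the log2 scale (SE 0.13, edgeR adjusted p = 0.225, and 0.0581 with the block).

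Jund encodes the Jun protein that is expressed at a steady level in most cells, and it was the steadiest of the genes. Its single-exon gene (ENSMUSG00000071076) is at chr8:70698949-70700616 on the plus strand and shares 877 exon bases with the antisense gene Gm11175. Levels were 239, 229 and 227 CPM in DMSO libraries, against 260.0, 241 and 246 in 4OHT libraries. The groups did not overlap, although they lay within 1.14-fold of each other over all 6 libraries. The log2 fold change was 0.10 (SE 0.057, edgeR adjusted p = 0.448), and 0.06 without 4OHT replicate 1.

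Atf3 encodes a stress-induced bZIP protein that represses or activates genes with Jun partners. The gene (ENSMUSG00000026628) lies at chr1:191170296-191218039 on the minus strand. It was measured at 3.45, 4.00 and 3.35 CPM in DMSO libraries, against 3.09, 5.59 and 2.49 in 4OHT libraries. The 4OHT group had both the highest and the lowest library, and the groups overlapped. The log2 fold change was 0.05 (SE 0.30, edgeR adjusted p = 0.960), and the sign turned negative with limma-voom (-0.05), with the block (-0.01), when 4OHT replicate 2 was left out (-0.37) and without DMSO replicate 3 (-0.01).

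Egr1 encodes a zinc finger transcription factor, not a bZIP protein, that is activated by SRF and ternary complex factors. Egr1 (ENSMUSG00000038418) was measured at 46.4, 30.2 and 39.2 CPM in DMSO libraries, against 54.1, 29.5 and 89.6 in 4OHT libraries. 4OHT replicate 3 was the highest of the 6 libraries and 4OHT replicate 2 the lowest, so the groups overlapped. Egr1 had a log2 fold change of 0.58 (SE 0.37, edgeR adjusted p = 0.519). Leaving out 4OHT replicate 3 gave 0.11, and leaving out 4OHT replicate 2 gave 0.90.

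Ier3 encodes a small protein of early growth and stress responses that is known for effects on survival and ERK signalling. The gene (ENSMUSG00000003541) is at chr17:35821684-35822923 on the plus strand, with 2 exons. It was measured at 21.7, 17.8 and 11.5 CPM in DMSO libraries, against 28.6, 27.5 and 30.9 in 4OHT libraries. The groups did not overlap, the 4OHT libraries lay close together, and DMSO replicate 3 was the lowest. The means were 17.0 ± 5.10 and 29.0 ± 1.77 CPM (SD, n = 3), 1.71-fold. On the log2 scale this was 0.77 (SE 0.21, edgeR adjusted p = 0.150, and 0.0103 with DESeq2). It was 0.55 (edgeR adjusted p = 0.0497) without DMSO replicate 3 and 0.50 (edgeR adjusted p = 0.0472) without replicate 3 of both groups. In the authors' deposited table the log2 fold change of Ier3 was 0.769, with an adjusted p of 0.016 by DESeq and 0.0059 by edgeR, and the other 9 genes had deposited adjusted p-values of 0.11 or more.

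**Figure D2:**
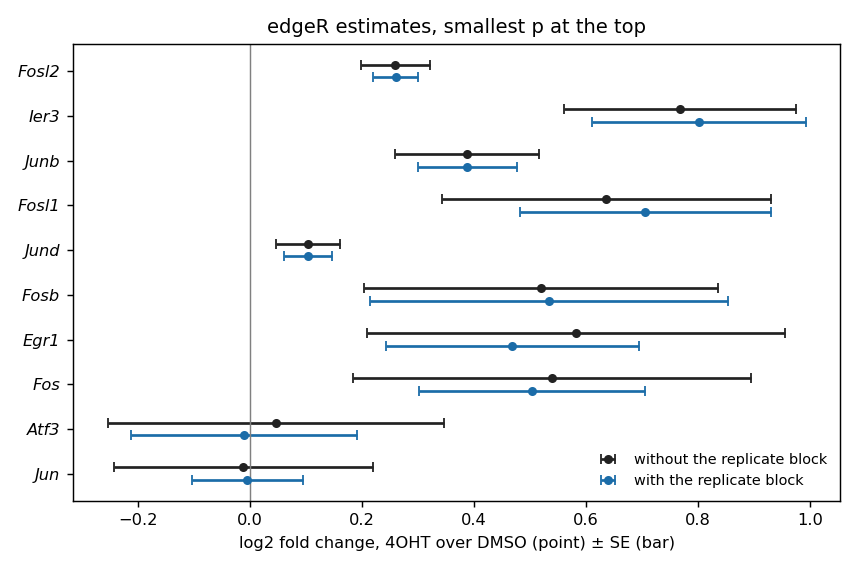
Log2 fold change (x axis, 4OHT over DMSO) ± SE from edgeR for each of the 10 genes, without (black) and with (blue) the replicate number as a block. Jun and Atf3 lie at 0, and Fosl2 has the shortest bars beside Jund.

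The size of the difference varied between same-numbered pairs of libraries. In Ier3 the 4OHT library exceeded the DMSO library by 0.40, 0.63 and 1.42 (log2 CPM) in pairs 1, 2 and 3. In Fos the values were 0.23, 0.12 and 1.17, and in Fosl1 they were 0.31, 0.45 and 1.46. Egr1 differed by 0.22, -0.03 and 1.19. Pair 3 gave the largest of the 3 differences in 5 of the 7 genes that were higher in all pairs (71.4%), beside 58.7% of the genes that were higher in all pairs over the whole table. Over all 10 genes it did so in 7, beside 38.8% of tested genes. Pair 3 holds DMSO replicate 3, the library that stood apart, but the deviating library differed between genes. Replicate 3 minus the mean of replicates 1 and 2 (log2 CPM) was -1.17 in DMSO and -0.10 after 4OHT for Fosl1. For Ier3 it was -0.77 and 0.14, for Fos -0.27 and 0.73, and for Egr1 0.07 and 1.17. What made pair 3 differ was not tested. Fosl2 was nearly the same in all pairs, and Jund differed by 0.12, 0.08 and 0.11. With replicate 3 left out of both groups and the replicate number kept as a block, a choice made after the data were seen that leaves 4 libraries and 1 residual degree of freedom, edgeR called 5 of the 10 higher (18.3% of all tested genes, 10.1% higher). These were Fos (log2 0.17, adjusted p = 0.0345), Fosl1 (0.37, 0.0118), Fosl2 (0.25, 0.000283), Junb (0.25, 0.000293) and Ier3 (0.50, 4.62e-05).

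**Figure D3:**
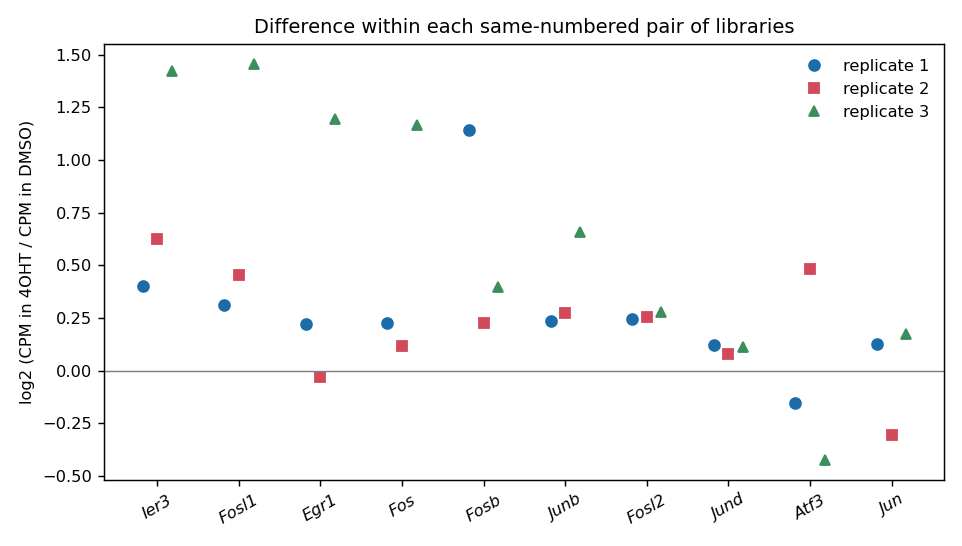
Log2 CPM difference, 4OHT minus DMSO (y axis), within each same-numbered pair of libraries (circles pair 1, squares pair 2, triangles pair 3) for the 10 genes. Ier3, Fosl1, Egr1 and Fos have pair 3 values of 1.42, 1.46, 1.19 and 1.17, while the 3 points of Fosl2 and Jund lie together.

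The genes differed in how much they varied between libraries of one group. The pooled within-group SD of log2 CPM was 0.58 for Fos and 0.61 for Egr1, at the 98.7th and 98.9th percentile of 9374 genes averaging 10 CPM or more, whose median was 0.098. Jun was at the 95.2nd percentile and Ier3 at the 94.1st, Junb at the 83.7th. Fosl2 (0.069, 27.8th percentile) and Jund (0.048, 12.0th percentile) varied no more than most genes. Library profiles, the 6 values of log2 CPM centred on their mean, were compared without scaling, so that genes that vary little lie close together. Among the 45 pairs of genes the smallest root mean square difference was between Fosl2 and Jund (0.084), followed by Fosl2 and Junb (0.150) and by Fosl1 and Ier3 (0.163). Fos and Egr1, both high in 4OHT replicate 3 and low in replicate 2 of either group, ranked 5th (0.210). These are descriptions over 6 libraries that share the same 2 groups.

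Levels were compared between genes only per kb of annotated exon. In DMSO, Jund had the highest level at 139 ± 3.73 CPM per kb (SD, n = 3), followed by Junb at 37.7, Fos at 17.0, Ier3 at 15.0, Jun at 14.4, Fosl2 at 11.6, Egr1 at 8.60, Fosl1 at 3.74, Atf3 at 1.67 and Fosb at 0.0495. Over the 6 libraries the ranges were separate at the steps from Jund to Junb, Junb to Fos, Egr1 to Fosl1 and Atf3 to Fosb, and the ranges of the other neighbours overlapped. Fosl1 was above Atf3 within each of the 6 libraries. Divided by the longest annotated transcript, Fosl2 (17.1 CPM per kb in DMSO) passed Ier3 (15.0) and Jun (14.4). After 4OHT the order was the same except that Ier3 (25.6) stood just above Fos (24.7), which overlapped. The Jun genes together amounted to 191 ± 11.7 CPM per kb in DMSO and 213 ± 12.9 after 4OHT, and the Fos genes to 32.4 ± 7.71 and 44.5 ± 9.91. The Jun genes thus exceeded the Fos genes 6.05-fold in DMSO and 4.93-fold after 4OHT, with ranges of 4.94 to 6.65 and 4.14 to 6.03 that overlap. Within same-numbered pairs the DMSO and 4OHT ratios were 4.94 and 4.62, 6.65 and 6.03, and 6.56 and 4.14, lower after 4OHT in each. The ratio was not tested. The family sums and ratios depend on the length used and were not recomputed with the longest transcript. In DMSO that length moved Fosl2 from 11.6 to 17.1 and Junb from 37.7 to 47.9 CPM per kb. On average Jund made up 72.8% and 70.2% of the Jun family, and Fos 51.7% and 53.9% of the Fos family. The Fos share ran from 44.5% to 58.1% over the DMSO libraries and from 41.2% to 63.0% over the 4OHT libraries. In 4OHT replicate 2, where Fos was at 41.2%, Fosl2 made up 41.4%.

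**Figure D4:**
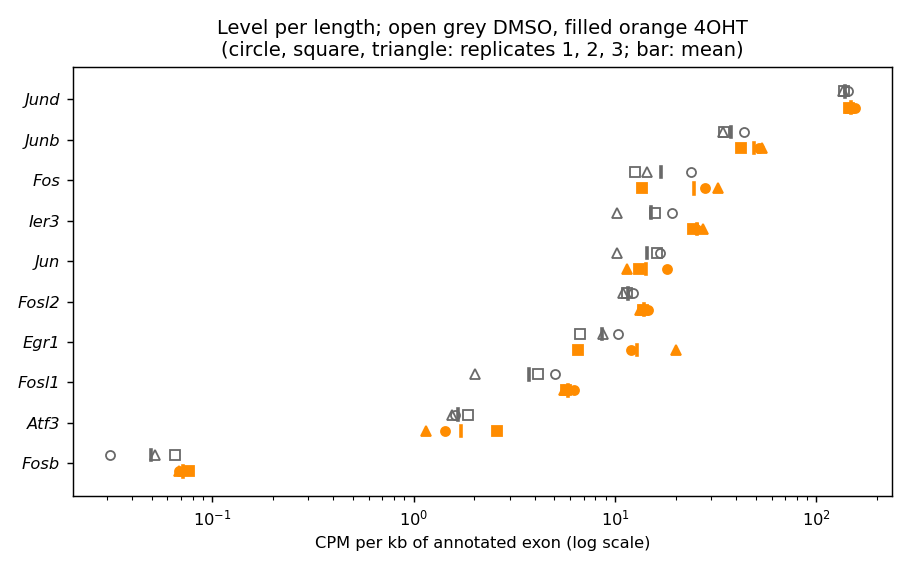
Level of each gene in CPM per kb of annotated exon (x axis, log scale) in the 6 libraries, DMSO in open grey and 4OHT in filled orange, with the mean of each group as a bar. Jund leads at 139 CPM per kb in DMSO and Fosb trails at 0.0495.

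For the 3 genes with the smallest p-values, the genes with the most similar profile over the 6 libraries were sought among 9127 genes averaging 10 CPM or more, with the 10 genes themselves and predicted genes left out. Fosl2 was closest to Bcl9l (root mean square difference 0.015, log2), Eml3 and Cyb561a3. Ier3 was closest to Ildr1 (0.045), Mapk11 (0.047) and Ttll7 (0.056), each of which was lowest in DMSO replicate 3. Junb was closest to Tnfrsf10b (0.053), Errfi1, an inhibitor of the EGF receptor (0.055), and Rcan3 (0.061). Their direction after 4OHT and their pattern over the libraries follow from this choice.

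The rest of the pathway was described through lists of genes named with earlier results of these data known. Each count is to be read beside the shares over all tested genes: edgeR called 0.908%, or 8.65% higher and 6.35% lower before adjustment, limma-voom 0.846%, DESeq2 5.13% and edgeR with the block 6.99%. Among 15 tested inhibitors that feed back on MAP kinases, edgeR called 0, with 4 higher and 1 lower before adjustment (p under 0.05), and the median log2 fold change was 0.28. DESeq2 called 3 higher (5.13% over all tested genes) and limma-voom 0. The 4 with the smallest p-values were Dusp4 (log2 0.28, SE 0.063, adjusted p = 0.0986), a phosphatase of ERK, Dusp6 (0.52, SE 0.13, adjusted p = 0.132), Dusp1 (0.60, SE 0.16, adjusted p = 0.150) and Dusp8 (-0.35, SE 0.12, adjusted p = 0.230). DESeq2 called Dusp1, Dusp4 and Dusp6, and the block called Dusp4 (adjusted p = 0.0268) and Spry2 (0.0426). Dusp6 was at 73.9, 64.7 and 56.7 CPM in DMSO libraries, against 91.1, 80.8 and 108 in 4OHT libraries, without overlap.

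Other partners of AP-1 in the bZIP family gave a median of 0.04 over 14 tested genes, with 0 called by edgeR and by limma-voom, 2 higher and 1 lower before adjustment (p under 0.05), and 3 called by DESeq2 (5.13% over all tested genes). DESeq2 and the block both called the small Maf protein Maff (log2 0.42, SE 0.089, edgeR adjusted p = 0.0878) and the Jun dimerisation protein Jdp2 (1.23, SE 0.28, 0.109) higher and Maf (-0.74, SE 0.19, 0.132) lower. Jdp2 was at 3.31, 2.91 and 1.66 CPM in DMSO libraries, against 5.10, 7.90 and 5.61 in 4OHT libraries. The fourth of the list, Mafk, had a log2 fold change of 0.18 (adjusted p = 0.402).

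Over 22 other immediate early genes the median was 0.16. edgeR, DESeq2 and limma-voom called 0, with 2 higher and 1 lower before adjustment (p under 0.05) by edgeR. Those with the smallest p-values were Gadd45b (log2 0.32, adjusted p = 0.154), Nr4a2 (-0.26, 0.292), Mcl1 (0.15, 0.319) and Ptgs2 (1.16, 0.371), and the block called Klf10 (0.26, 0.0396), named for that call after its value was seen. Among 6 SRF and ternary complex factors edgeR called 0, with 0 at an unadjusted p under 0.05, the other tools called 0 too, and the median was 0.03. Elk3 had the smallest p-value (0.64, SE 0.35, adjusted p = 0.450).

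The 21 tested MAP kinase cascade genes had a median of 0.02, and edgeR and limma-voom called 0, with 3 higher and 3 lower before adjustment (p under 0.05). The block called 2 lower: Mapk13, a p38 kinase (log2 -0.43, SE 0.044, adjusted p = 0.0112 with the block and 0.113 without it), and Rps6ka5 (-0.53, SE 0.10, adjusted p = 0.0432 and 0.221). DESeq2 called Mapk11 higher and Mapk13 lower. Mapk11 had an edgeR log2 fold change of 0.77 (SE 0.19, adjusted p = 0.115, 0.0517 with the block and 0.00349 with DESeq2). Its levels were 25.2, 22.4 and 14.7 CPM in DMSO libraries, against 35.9, 32.8 and 37.9 in 4OHT libraries, without overlap.  Mapk13 was at 228, 219 and 270.1 CPM in DMSO libraries, against 175, 162 and 194 in 4OHT libraries. Map2k4, the kinase above JNK, had a log2 fold change of 0.17 (adjusted p = 0.173). Heat shock genes, included as a sign of handling stress, gave a median of 0.05 over 9 tested genes, with 0 called by all 3 tools, 1 higher at an unadjusted p under 0.05 (Hspa1b, 0.57, adjusted p = 0.211). Hspa1a and Hspa1b are near-identical copies, so their counts are uncertain.

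Among 15 tested genes known as targets of AP-1, edgeR called 1 (beside 0.908% of all tested genes), and the median log2 fold change was 0.64. The list was written with earlier results of these data in view and holds Ivl, Lor and Sprr1a, so its direction is no independent support. Ivl, a protein of the cornified envelope, was at 2.58, 1.47 and 1.07 CPM in DMSO libraries, against 19.0, 7.70 and 19.6 in 4OHT libraries, and rose by 3.16 on the log2 scale (SE 0.46, edgeR adjusted p = 0.0362). That call was lost without DMSO replicate 1 (0.0804), DMSO replicate 2 (0.161), 4OHT replicate 1 (0.155) or 4OHT replicate 3 (0.124), and with limma-voom (0.0738). Without DMSO replicate 3 edgeR called 2 genes of the list (2.29% over all tested genes), and without replicate 3 of both groups 5 (4.1%). DESeq2 called 6 higher (5.13%), and limma-voom called 1, Plau (adjusted p = 0.0425). The block called 7 (6.99%): among them Plau (log2 1.86), a plasminogen activator, Lor (1.27), Sprr1a (1.67), Hmox1 (0.69) and Ivl (3.11) were higher, and Mt2 (-1.22), a metallothionein that was at 406 CPM in DMSO replicate 3, was lower. Plau was at 3.11, 3.21 and 1.30 CPM in DMSO libraries, against 8.88, 9.64 and 8.38 in 4OHT libraries (adjusted p by edgeR = 0.0551 without the block). Sprr1a was at 19.0, 16.4 and 28.3 CPM in DMSO libraries, against 64.1, 33.2 and 129 in 4OHT libraries.

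**Figure D5:**
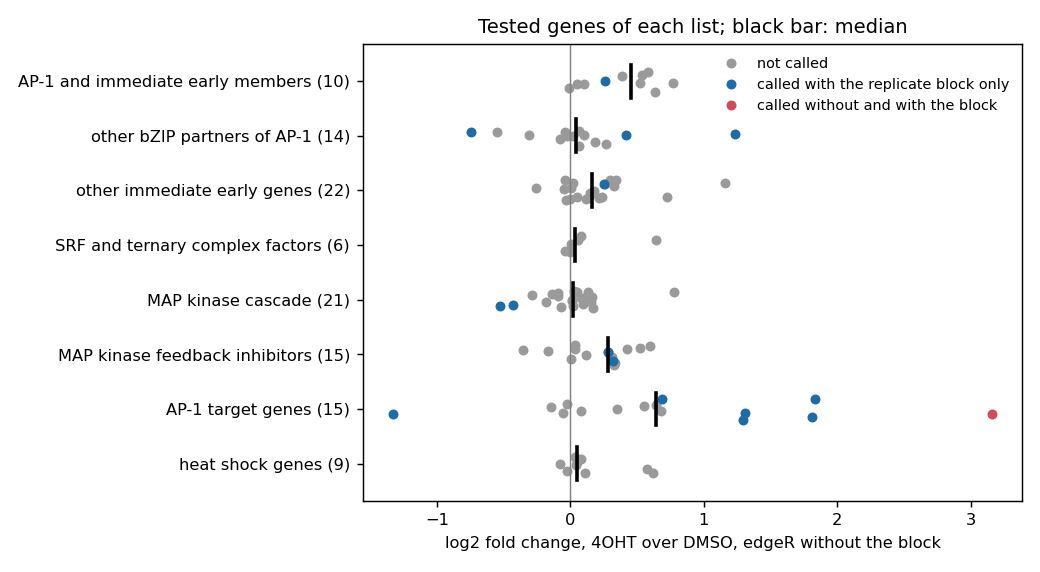
Log2 fold change (x axis, 4OHT over DMSO) of every tested gene in 8 lists, with the list's median as a black bar and the number of tested genes in brackets; grey genes were not called, blue ones with the replicate block only and the red one with and without it. The medians of the feedback inhibitors (0.28), the AP-1 and immediate early genes (0.45) and the AP-1 targets (0.64) lie above those of the other lists (0.02 to 0.16).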

How the data were processed

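RNA was prepared with poly(A) selection and a directional kit from 250 ng, per the labels' protocols. The submitters' processing notes name bcl2fastq 1.8.4, STAR 2.4.0f1 and the build GRCm38. The counting program and its strand setting are not given in the sources used here. The authors deposited raw counts per gene for 6 libraries, and every listed gene had a summed count of at least 10. They also deposited normalised values, used here as a score only to recover per-library factors (0.863 to 1.117), which are the counts divided by a factor and rounded, judged from the values. The authors' log2 fold change and p-values from DESeq and edgeR were deposited too, per the file headers, and are given only where the authors' deposited table is named.

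Counts were tested in R 4.3.3 with edgeR 4.0.16 (filterByExpr, which kept 14544 of 18448 genes and removed 3904, TMM scaling, quasi-likelihood F test, two-sided, Benjamini-Hochberg over all tested genes, called at an adjusted p under 0.05). Alternatives used DESeq2 1.42.0 and limma-voom (limma 3.58.1). CPM uses TMM-adjusted library sizes. The SE is the absolute log2 fold change divided by the square root of F. Levels per kb use the union of annotated exons in GENCODE mouse release M21.

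For the fits with the block and the differences within pairs, the replicate numbers were taken to pair libraries. Deviations from the group means correlated across genes at 0.286, 0.301 and 0.409 for libraries of the same number, and at -0.341 to 0.070 for other pairs. Because the deviations were centred within each group, higher values for some pairs go with lower values for others by construction. The labels give no shared culture or day. Named genes were all 10 members, Hnf4a, up to 4 tested genes per list with the smallest p-values, and for each of the 3 members with the smallest p-values the 3 genes with the most similar profile. Spry2, Klf10, Hmox1 and Mt2 fell outside this rule and were named for calls with the block, after their values were seen. The members and lists were chosen with earlier results of these data known. The fits were checked on simulated counts. 1 gene of the AP-1 target list is not reported here.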

Additional observations from a re-analysis of the deposited data

How the results depend on the processing

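Over the alternatives, the number of all genes called by edgeR (132) became 744 with DESeq2, 49 with a filter at 10 CPM, 1017 with the replicate block, 601 without replicate 3 of both groups, and 2678 there once the replicate block was added; leaving out 1 library gave 4 to 340. The number of the 10 genes called (0) became 1 with DESeq2 (Ier3), 1 with the replicate block (Fosl2), 1 without replicate 3 of both groups (Ier3), and 5 there once the replicate block was added, and 0 to 1 on leaving out 1 library. Of 147 recomputed log2 fold changes of the 10 genes, 138 kept their side of the threshold and 9 passed it, and 8 changed sign, all of them in Jun or Atf3, which were not called under any alternative. The cause of these changes was not tested. The block leaves 2 residual degrees of freedom. Fosb, at 7 to 17 counts per library, was not called under any alternative, and how large a difference could have been detected was not tested.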
